A study of Mus musculus with 6 samples.

Results

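Tight junctions seal the apical surfaces of hair cells and supporting cells into the reticular lamina of the organ of Corti, and 7 genes of these junctions were examined in the cochlear sensory epithelium of mice whose inner hair cells (IHCs) overexpressed the potassium channel Kir2.1. They were chosen by name as tight and tricellular junction genes that include several deafness genes. They were Cldn9, Cldn14, Ocln, Marveld2, Ildr1, Lsr and Tjp1. The 7 genes are among 24411 gene symbols in the count tables, and all 7 passed the filter on low counts that left 15303 genes to be tested.

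The reticular lamina separates potassium-rich endolymph, which bathes the hair bundles, from perilymph around the hair cell bodies. Claudins form the paracellular strands of bicellular junctions, where a pair of cells meet, and tricellulin (Marveld2) and the angulins (Ildr1, Lsr) close the points where 3 cells meet. Loss of claudin-9, claudin-14, occludin, tricellulin or Ildr1 is known to cause deafness in mice, with hair cells that form and then degenerate.

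RNA was sequenced from 6 libraries at postnatal day 9 (P9), 3 for each genotype, and each library was a pool of 8 cochleae from 4 mice. Kir2.1-OE mice carried both transgenes, Otof rtTA+/- and Kir2.1+/-, and their control littermates were Otof rtTA+/- and Kir2.1+/+. Both groups were on the C57BL/6N background and both drank doxycycline (DOX), so that the inducer and the rtTA transgene were common to them. The Otof promoter drives rtTA in hair cells, mainly IHCs, whereas the dissected tissue also held supporting cells and other cells. In such tissue, fewer cells of a type and less RNA per cell cannot be told apart. The comparison asks how RNA levels changed when the IHCs could not fire their intrinsic calcium action potentials, while those set off by neighbouring cells remained.

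Assigned reads came to between 35430940 and 41205047 per library. Kcnj2, which encodes Kir2.1, checked the labels. Its normalized counts (counts scaled to a common library size) were 3612, 3813 and 2213 in Kir2.1-OE pools and 235.8, 228.1 and 226.0 in controls, a fold of 14.0 (edgeR, adjusted p = 7.04e-05). Genes were called at an adjusted p below 0.05 with a fold change above 1.5, and values that met the adjusted p alone are given as such. This rule was met by 15.5% of the genes tested in the higher direction and by 5.08% in the lower. The direction of change followed transcript length across all genes, so values are also given from a second fit with offsets, which subtract from each library its trend with transcript length and GC content. Offsets rest on the longest annotated transcript of each gene unless the median transcript is named.

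Cldn9 and Cldn14 encode the claudins with the closest ties to hair cell survival. Cldn9 lies on the minus strand at chr17:23682584-23684026 (mm10) as a single annotated transcript of 1443 nt, 137 bp from Cldn6 on the opposite strand. Cldn14 lies on the minus strand at chr16:93919031-94008837, with a longest transcript of 1457 nt. Short coding sequences of claudins resemble each other, and reads of such stretches could be split among genes. The Cldn9 coding sequence was 74.5% identical to that of Cldn6, with a longest shared run of 37 nt, and 59.7% identical to that of Cldn14, with a longest shared run of 20 nt. The study's paired reads were longer than the run of 37 nt, so a full read over this run also covers bases that differ. How far reads were split was not tested. The stretches below cover the same 120 coding bases of each gene and are shown to mark the bases that Cldn9 and Cldn6 share. Capitals in Cldn9 mark the run shared with Cldn6, and capitals in Cldn6 and Cldn14 mark bases that differ from Cldn9, 8 and 52 of them.
Cldn9, chr17:23683445-23683564, minus strand: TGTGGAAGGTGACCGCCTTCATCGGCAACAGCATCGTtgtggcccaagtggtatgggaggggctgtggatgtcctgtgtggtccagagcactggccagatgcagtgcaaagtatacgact
Cldn6, chr17:23681149-23681268, plus strand: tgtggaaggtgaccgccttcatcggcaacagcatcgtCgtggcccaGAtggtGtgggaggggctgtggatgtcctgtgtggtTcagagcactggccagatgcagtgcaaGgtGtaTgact
Cldn14, chr16:93919752-93919871, minus strand: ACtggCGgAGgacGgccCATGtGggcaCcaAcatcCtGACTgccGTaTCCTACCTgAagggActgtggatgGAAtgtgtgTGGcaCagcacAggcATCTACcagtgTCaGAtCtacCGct

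Cldn9 had the highest level of the 7 genes, and its counts were lower in Kir2.1-OE mice. Normalized counts were 11517, 13150 and 10860 in Kir2.1-OE pools and 15198, 14196 and 16070 in controls. All 3 Kir2.1-OE pools lay below all 3 controls. Means were 11842 ± 1179 and 15155 ± 938 (SD, n = 3 each), and the log2 fold change was -0.36 (SE 0.0900, 95% confidence interval -0.56 to -0.15, adjusted p = 0.00919 by edgeR), a change of -21.9%, which did not reach the fold of a call. With offsets it was -0.15 (SE 0.0850, adjusted p = 0.195), so the adjusted p no longer passed. Offsets from the median transcript gave -0.43 (adjusted p = 0.00461 by edgeR). Cldn9 has 1 annotated transcript, so its own length was 1443 nt in both fits and only the trend over other genes differed. Which fit better removes the trend with length was not tested.

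Cldn14 did not differ beyond the spread of the pools. Its normalized counts were 973, 963 and 793 in Kir2.1-OE pools and 908, 954 and 1072 in controls. The lowest value was a Kir2.1-OE pool and the highest a control, while the other Kir2.1-OE pools lay above the other controls, so the groups overlapped. The log2 fold change was -0.10 (SE 0.105, interval -0.34 to 0.13, adjusted p = 0.437 by edgeR), and with offsets its sign turned, to 0.05 (adjusted p = 0.710).

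Occludin and tricellulin are 4-pass membrane proteins of the MARVEL family, found along bicellular and at tricellular contacts, respectively. Their genes lie on the minus strand of chromosome 13, Ocln at chr13:100496507-100552718 with a longest transcript of 4052 nt and Marveld2 at chr13:100595957-100616971 with 3111 nt, 43238 bp apart. Ocln was lower in Kir2.1-OE mice. Its normalized counts were 1408, 1419 and 1532 in Kir2.1-OE pools and 2019, 1795 and 1737 in controls, without overlap. The log2 fold change was -0.35 (SE 0.0807, interval -0.53 to -0.17, adjusted p = 0.00593 by edgeR), a change of -21.5%, and with offsets it was -0.30 (SE 0.0726, adjusted p = 0.0118).

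Marveld2 had the lowest level of the 7 genes. Its normalized counts were 620, 678 and 606 in Kir2.1-OE pools and 661, 665 and 695 in controls, so that the second Kir2.1-OE pool lay among the controls. The log2 fold change was -0.09 (SE 0.0874, interval -0.28 to 0.11, adjusted p = 0.436 by edgeR), and -0.07 with offsets. Offsets from the median transcript gave -0.31 (adjusted p = 0.0198 by edgeR).

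The angulins recruit tricellulin to tricellular contacts. Ildr1 lies on the plus strand at chr16:36693978-36726804, with a longest transcript of 3042 nt, and Lsr on the minus strand at chr7:30957770-30973464, with 2167 nt. Ildr1 normalized counts were 3601, 3570 and 3021 in Kir2.1-OE pools and 3674, 3327 and 4347 in controls. The first pair of Kir2.1-OE pools lay within the control range and the third below it. The log2 fold change was -0.15 (SE 0.109, interval -0.40 to 0.09, adjusted p = 0.261 by edgeR), and -0.17 with offsets. Offsets from the median transcript gave -0.46 (adjusted p = 0.00914 by edgeR).

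Lsr was lower in Kir2.1-OE mice, by a smaller margin than Cldn9 or Ocln in the point estimates. Its normalized counts were 3001, 3335 and 2964 in Kir2.1-OE pools and 3714, 3478 and 3776 in controls, without overlap. The log2 fold change was -0.24 (SE 0.0734, interval -0.40 to -0.07, adjusted p = 0.0225 by edgeR), a change of -15.2%, and with offsets it was -0.25 (adjusted p = 0.0251). Offsets from the median transcript gave -0.46 (adjusted p = 0.00159 by edgeR). The adjusted p rose above the threshold when Kir2.1-OE replicate 1 (0.0698), Kir2.1-OE replicate 3 (0.0611), control replicate 1 (0.0601) or control replicate 3 (0.0790) was left out. Lsr exons share 946 bp with Gm4673 and 25 bp with Gm17077, both antisense, and because the strand setting of the counting is not given, reads of these bases cannot be assigned to a strand.

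Tjp1 encodes ZO-1, the scaffold that links claudins and occludin to actin, and it was the only member called. It lies on the minus strand at chr7:65296165-65527781, and its longest transcript, of 7049 nt, was the longest of the 7 genes. Normalized counts were 11457, 11429 and 9631 in Kir2.1-OE pools and 6464, 6522 and 5807 in controls. All Kir2.1-OE pools lay far above all controls. The log2 fold change was 0.79 (SE 0.0902, interval 0.59 to 0.99, adjusted p = 2.23e-04 by edgeR), a fold of 1.73, and with offsets it was 0.27 (SE 0.0795, adjusted p = 0.0264), below the fold of a call. Offsets from RefSeq-matched transcripts gave 0.24 (adjusted p = 0.0474 by edgeR), also below that fold. From the median of its 7 annotated transcripts, of 699 nt, the value was 0.91 (adjusted p = 2.12e-04 by edgeR). That setting places Tjp1 among short genes, so it does not correct for a transcript of 7049 nt.

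**Figure D1:**
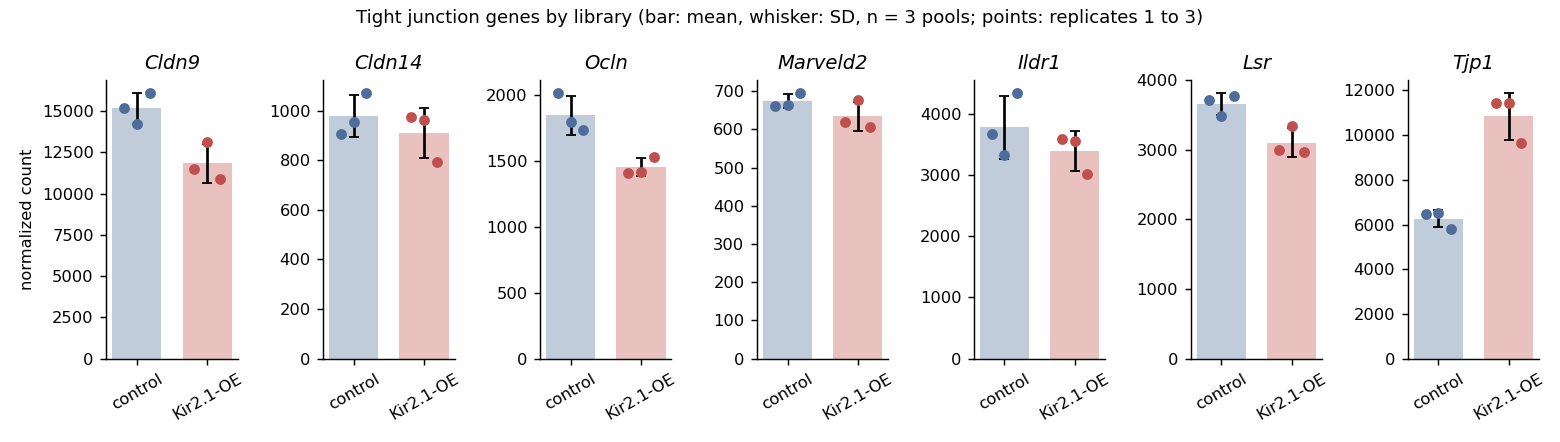
Normalized counts of the 7 genes in each pool (points), with the group mean (bar) and SD (whisker), for 3 control and 3 Kir2.1-OE pools; each panel has its own axis from 0. Tjp1 lies higher in all Kir2.1-OE pools (9631 to 11457 against 5807 to 6522), and Cldn9, Ocln and Lsr lie lower in all of them.

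Of the 7 genes, 1 was called higher and 0 lower, against 15.5% and 5.08% of all genes tested. At an adjusted p below 0.05 and any fold, 1 was higher and 3 were lower (Cldn9, Ocln and Lsr), where 27.3% of all genes were higher and 23.5% lower. The pools of 1 gene lay wholly above the controls and those of 3 wholly below, patterns held by 31.7% and 29.9% of all genes. The median log2 fold change of the 7 was -0.15, beside 0.01 over all genes. With offsets none of the 7 was called, where 6.42% of all genes were called higher and 3.42% lower, and at any fold 1 was higher (Tjp1) and 2 were lower (Lsr and Ocln), against 14.3% and 20.0%. With offsets from the median transcript 1 of the 7 was called higher (Tjp1) and 0 lower, against 10.8% and 5.55% of all genes. At any fold 1 was then higher and 5 were lower, all but Cldn14 of the rest, against 20.9% and 26.6%. For a list of 7 genes, none of these counts is read as a departure from the shares of all genes.

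**Figure D2:**
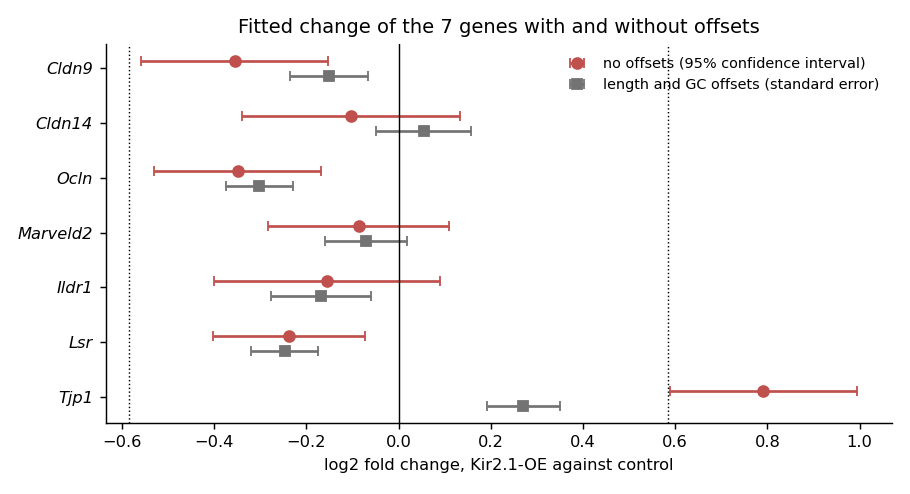
Log2 fold change of each gene, Kir2.1-OE against control, without offsets (circles, 95% confidence interval) and with length and GC offsets (squares, standard error); dotted lines mark the fold of a call. Tjp1 moved from 0.79 to 0.27 and Cldn9 from -0.36 to -0.15, whereas Ocln and Lsr changed little; these offsets rest on the longest transcript.

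Transcript length moved with these values. Among the 1288 tested genes with a longest transcript of 6000 to 8000 nt, the class of Tjp1, 44.6% were called higher and the median log2 fold change was 0.54. Among the 2502 genes of 1000 to 2000 nt, the class of Cldn9 and Cldn14, 11.1% were called lower and the median was -0.30. Ocln went against its class, since 3607 genes of 4000 to 6000 nt had a median of 0.21 and 1.33% of them were called lower. Lsr, at -0.24, stood beside a median of -0.13 among 3211 genes of 2000 to 3000 nt. The part of transcript length in the change of each gene was not tested beyond the offsets.

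**Figure D3:**
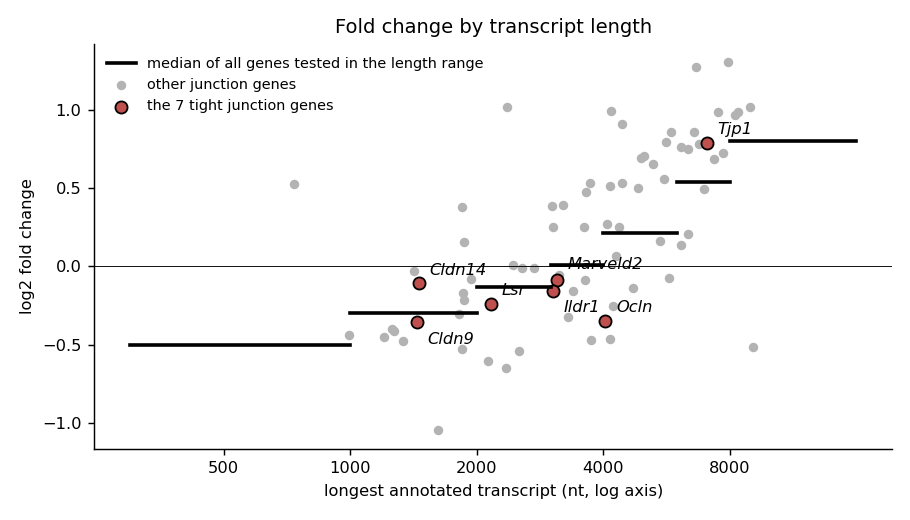
Log2 fold change of the 7 genes (red, named) and the other junction genes (grey) against the longest annotated transcript (nt, log axis); bars are medians of all tested genes by length range. The median rises from -0.50 below 1000 nt to 0.81 at 8000 nt and more; Ocln lies below the median of its length class and Tjp1 above.

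Levels were compared between genes per kilobase of the longest transcript, as CPM per kilobase. In the control pools Cldn9 ranged from 262.8 to 295.2, followed by Lsr (42.9 to 46.2), Ildr1 (29.2 to 37.9), Tjp1 (21.8 to 24.7), Cldn14 (16.7 to 19.5), Ocln (11.4 to 13.3) and Marveld2 (5.69 to 5.92). No neighbours in this order overlapped in controls. The order rests on the longest transcript and was not computed on the median one, which is 699 nt for Tjp1 against 7049 nt for its longest. In Kir2.1-OE pools Tjp1 (36.5 to 43.8) overlapped Lsr (36.5 to 40.3), so their order could not be told.

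Ratios within a pool need no scaling between libraries, but they keep the trend with transcript length. Tjp1 to Ocln counts, scaffold to membrane partner, stood at 8.14, 8.05 and 6.29 in Kir2.1-OE pools and 3.20, 3.63 and 3.34 in controls. The lack of overlap follows from the separation of each gene in opposite directions, and their longest transcripts differ (7049 and 4052 nt). Ildr1 to Lsr, the angulin pair, was 1.10 ± 0.0930 and 1.03 ± 0.104. Marveld2 to Ocln was 0.438 ± 0.0409 and 0.366 ± 0.0366 (SD, n = 3). Cldn9 to Cldn14, the claudin pair, ranged from 11.8 to 13.7 in Kir2.1-OE pools and from 14.9 to 16.7 in controls, lower in Kir2.1-OE mice without overlap. The exact permutation test on its log2 values gave p = 0.1, the lowest possible with 3 pools against 3. The share of gene pairs that separate in this way was not computed.

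Among all claudin genes, Cldn9 held the largest share of counts in controls. Its share was 29.5%, 32.3% and 27.4% in Kir2.1-OE pools and 31.0%, 31.3% and 34.4% in controls, with overlap. The difference was -2.49 percentage points (exact two-sided permutation test, p = 0.3, adjusted over 2 comparisons 0.4), and -0.94 points when counts were divided by transcript length. Shares of a fixed total move against each other, and the Cldn19 share was 16.7% ± 2.83 in Kir2.1-OE pools and 7.12% ± 1.84 in controls. That rise of 9.62 points lowers the shares of the other claudins, and the Cldn9 share without Cldn19 was not computed. The Cldn9 difference of -2.49 points is therefore not read as a change of Cldn9 against the other claudins. The Cldn14 share was 2.29% ± 0.257 in Kir2.1-OE pools and 2.08% ± 0.222 in controls (SD, n = 3), and the groups overlapped too (difference 0.20 points, exact permutation p = 0.4, adjusted 0.4, and 0.40 points per length). With 3 pools against 3 this test cannot go below 0.10.

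**Figure D4:**
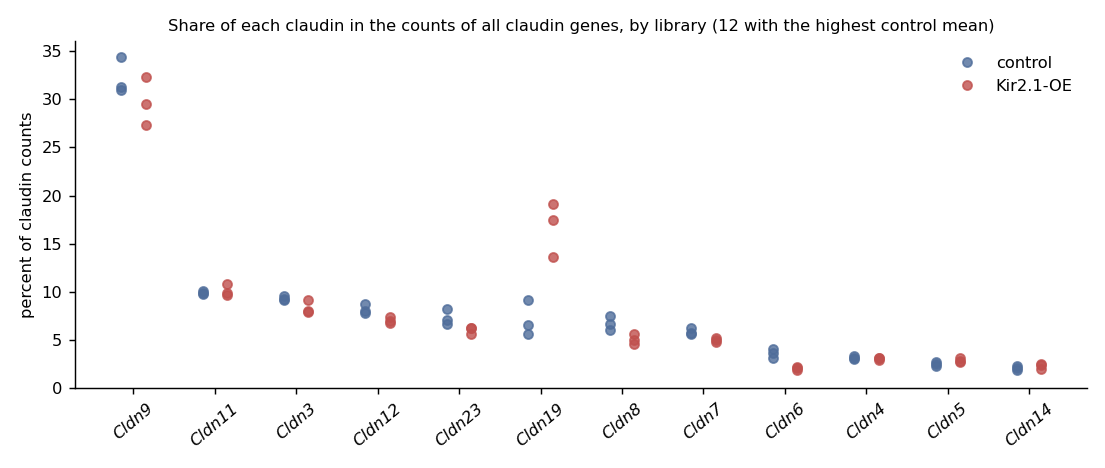
Percent of the counts of all claudin genes held by each claudin in each pool, for the 12 claudins with the highest control mean. Cldn9 leads at about 27.4% to 34.4% with overlapping groups, and Cldn19 is higher in all Kir2.1-OE pools.

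The other junction genes were read from the same fit, by lists chosen for their role. Of 15 other claudins tested, 1 was called higher and 2 lower, against 15.5% and 5.08% of all genes. The list's median log2 fold change was -0.44, or -0.24 with offsets. At an adjusted p below 0.05 and any fold, 9 were lower and 1 higher, against 23.5% and 27.3% of all genes. With offsets these were 7 and 1, against 20.0% and 14.3%. The pools of 12 lay wholly below the controls and those of 1 wholly above, against 29.9% and 31.7%. Cldn6, the neighbour of Cldn9, was lower at -1.05 (SE 0.126, adjusted p = 2.62e-04 by edgeR), with 818 ± 91.2 against 1692 ± 268 normalized counts, and kept a call with offsets (-0.85). Cldn8 was lower at -0.65 (adjusted p = 0.00148) and lost the call with offsets or without Kir2.1-OE replicate 1 (-0.58) or control replicate 1 (-0.53). Cldn19, a claudin of Schwann cells and some epithelia, was higher at 1.00 (adjusted p = 9.58e-04) and 0.72 with offsets. Cldn11, the oligodendrocyte and stria basal cell claudin, had the highest normalized counts after Cldn9 in controls. It was at -0.21 (adjusted p = 0.0304 by edgeR), and at -0.01 with offsets (adjusted p = 0.930 by edgeR).

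Of the 14 plaque genes, which encode cytoplasmic scaffolds like Tjp1, 10 were called higher and 0 lower, against 15.5% and 5.08% of all genes. Their median log2 fold change was 0.74. Magi1 (1.31), Magi3 (1.28) and Amotl1 (1.02) had the highest values. Ybx3, the most abundant of the list, was at -0.17. The median longest transcript of this list was 6609 nt, against 1870 nt for the other claudins. Among all genes of 6000 to 8000 nt, 44.6% were called higher and the median was 0.54. With offsets 2 of the 14 kept a call, where 6.42% of all genes were called higher, and the list's median was 0.24. Both tricellular and MARVEL genes outside the 7 were tested: Ildr2, the other angulin, was called higher at 0.97 (adjusted p = 0.00770) but not with offsets (0.31), and Marveld3 stood at 0.01.

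None of the 7 junctional adhesion molecules was called, with a median of 0.16 (0.15 with offsets). Cxadr was at -0.08, and F11r, which encodes JAM-A, was lower at any fold (-0.54, adjusted p = 0.00125 by edgeR). Of 18 apical polarity genes 4 were called higher and 0 lower, against 15.5% and 5.08% of all genes, with a median of 0.21. With offsets the median turned to -0.11 and 1 gene, Lin7a, kept a call. Lin7a (1.02), Pard3b (0.99) and Pard3 (0.86) had the highest values, of which Pard3b and Pard3 were each at 0.30 with offsets, while the abundant Lin7c (-0.25) and Dlg1 (0.14) were not called. Without Kir2.1-OE replicate 3, Lin7a was at 0.64, below Pard3b (1.10) and Pard3 (0.93). Of 12 adherens junction genes 3 were called higher, Pvrl1 (0.80), Mllt4 (0.72) and Vcl (0.66), and 0 lower. The shares of all genes were 15.5% and 5.08%, and the list's median was 0.49. With offsets all 3 lost the call (0.08, 0.09 and 0.32), the median was 0.11, and Pvrl3, a gene outside the naming rule, was called lower (-1.06, adjusted p = 6.34e-04 by edgeR; -0.52 without offsets). Ctnnb1 (-0.09) and Ctnnd1 (0.21) were the most abundant of them. Of the 68 other junction genes tested, 19 were called higher and 2 lower, against 15.5% and 5.08% of all genes. With offsets 4 were called higher and 2 lower, against 6.42% and 3.42%.

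**Figure D5:**
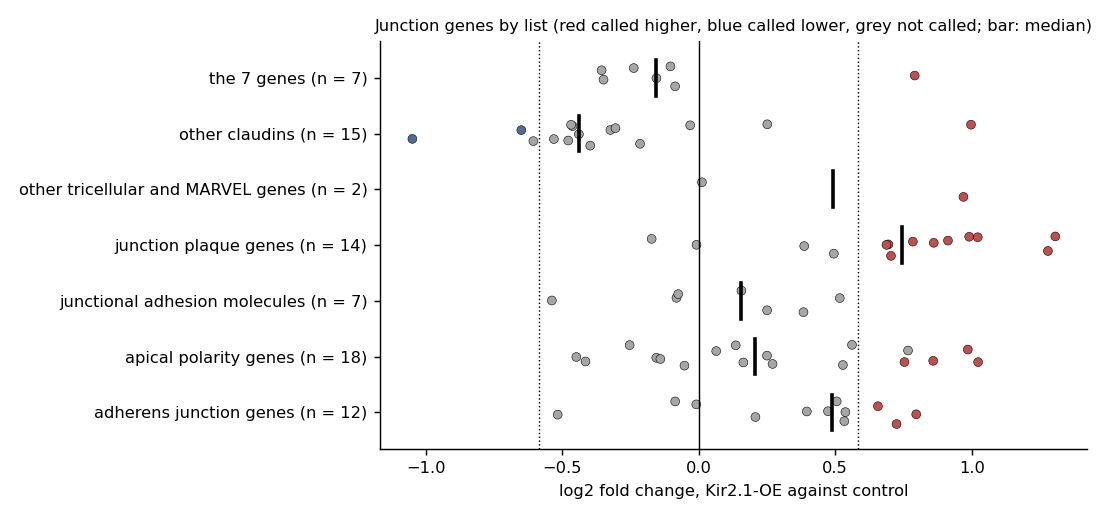
Log2 fold change of each junction gene by list, Kir2.1-OE against control; red was called higher, blue lower, grey not called, and bars mark list medians. Plaque genes sit mostly to the right (median 0.74) and other claudins to the left (median -0.44).

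Every gene of the cell type marker lists, hair cell and supporting cell lists included, passed the filter on low counts. Markers of several cell types moved with genotype. Epithelial markers (Epcam, Krt8, Krt18, Esrp1, Grhl2) summed to 27324 to 30606 in Kir2.1-OE pools and 30897 to 34682 in controls, with 0 of 5 called. Per 1000 of these counts, Cldn9 was 403 ± 25.0 in Kir2.1-OE pools and 468 ± 22.2 in controls, without overlap, whereas Lsr (105.5 ± 5.53 and 113.0 ± 6.29) and Ocln (49.6 ± 5.55 and 57.4 ± 7.65) overlapped. Tjp1 was 368 ± 13.8 and 194 ± 23.2, without overlap. Cldn14, Marveld2 and Ildr1 overlapped too, with log2 ratios of 0.04, 0.05 and -0.01. The epithelial sum was itself lower in all Kir2.1-OE pools, which raises the ratio of every gene. Most of it came from Epcam (2040 nt), at -0.16 without offsets and -0.01 with them. At an adjusted p below 0.05 and any fold, Krt8 (-0.26) and Krt18 (-0.20) were lower and Grhl2 (0.58) was higher. Shared hair cell markers summed to 22749 to 27329 in Kir2.1-OE pools and 19023 to 19666 in controls. Per 1000 of those counts all members but Tjp1 were lower in Kir2.1-OE pools without overlap. Their log2 ratios ran from -0.73 (Cldn9) to -0.46 (Marveld2), with Lsr at -0.61 and Ocln at -0.71, and Tjp1 was higher at 0.42. This sum was itself higher in all Kir2.1-OE pools, which lowers the ratio of every gene. Most of it came from Myo6 (7927 nt), at 0.36 without offsets and -0.10 with them. The share of all genes that separate on the epithelial or the hair cell scale was not computed, so neither pattern is read as a result about the members. Endothelial cells also express Tjp1 and Ocln, and 5 of 7 endothelial markers were called higher (Pecam1, Cdh5, Kdr, Tie1 and Flt1), against 15.5% of all genes. Emcn, the most abundant of this list, was lower in all Kir2.1-OE pools (-0.20, adjusted p = 0.0438 by edgeR). Sums of the list were 11516 to 12284 in Kir2.1-OE pools and 8837 to 10161 in controls. Cldn5, an endothelial claudin outside the naming rule, was at -0.03. Markers were also called higher for neuron (3 of 4: Nefl, Snap25, Rbfox3), inner hair cell (2 of 4: Otof, Slc7a14), shared hair cell (2 of 7: Myo7a, Ptprq), outer hair cell (2 of 4: Slc26a5, Ikzf2), supporting cell (2 of 6: Prox1, Otoa) and fibrocyte (1 of 4: Coch). Erythrocyte markers were lower in 3 of 4, stria vascularis was mixed (Kcnj10 higher, Dct and Tyr lower, of 6) and macrophage had 0 of 4. With offsets fewer markers were called: 3 of 7 endothelial (without Kdr and Tie1), 1 of 4 inner hair cell (Otof at -0.10), 0 of 7 shared hair cell (Myo7a at 0.31, Ptprq at 0.50), 1 of 4 outer hair cell with Strc now lower (-0.68), and 1 of 4 erythrocyte, while Kcnj10 also lost its call. Their part in the values of the 7 genes was not tested.

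The genes with the most similar profiles were ranked by Pearson r of log2 counts over the 6 pools, a description that genotype dominates wherever a gene differs between groups. They were Glt28d2 (0.999), Carhsp1 and Lst1 for Cldn9, Nadk (0.999), Glt28d2 and 2010107G23Rik for Lsr, Slc12a8 (0.998), Nedd1 and Rnf182 for Ocln, and Trim56 (0.999), Atxn2l and Ptprf for Tjp1. For members whose groups overlapped they were Xkr8 (0.988), Gm11747 and Rec8 for Cldn14, Arhgap1 (0.988), Map2k3 and Plscr3 for Marveld2, and Slc44a4 (0.982), Adipor2 and Phkb for Ildr1.

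RefSeq promoters (GRCm38.p6, 250 bases before to 50 after a start) matched 6 of the 7 genes in 10 windows. The E-box CACCTG, the letters bound by Snail and Zeb repressors of epithelial genes, was searched on both strands and occurred in 7 windows, of 5 genes, and in 20.2% of all 32851 promoters. Windows of the same gene can overlap, and both Marveld2 windows hold the same match, as do both Ocln windows for 1 of theirs. The grainyhead letters AACCNGTT occurred in none of the windows and in 2.09% of all promoters, and the SOX letters ACAATG in 1 window, of Cldn14, and in 12.6%. The promoters of Lsr, Ocln and Tjp1 are shown because these genes met the adjusted p with and without offsets. Capitals mark CACCTG on either strand, with 4, 2 and 0 matches.
Lsr, chr7:30973420-30973719, minus strand: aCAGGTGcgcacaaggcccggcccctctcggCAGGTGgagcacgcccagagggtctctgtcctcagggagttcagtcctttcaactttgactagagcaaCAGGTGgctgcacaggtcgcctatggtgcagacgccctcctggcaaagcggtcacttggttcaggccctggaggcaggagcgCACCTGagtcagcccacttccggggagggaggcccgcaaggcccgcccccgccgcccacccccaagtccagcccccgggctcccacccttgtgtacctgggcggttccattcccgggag
Ocln, chr13:100552449-100552748, minus strand: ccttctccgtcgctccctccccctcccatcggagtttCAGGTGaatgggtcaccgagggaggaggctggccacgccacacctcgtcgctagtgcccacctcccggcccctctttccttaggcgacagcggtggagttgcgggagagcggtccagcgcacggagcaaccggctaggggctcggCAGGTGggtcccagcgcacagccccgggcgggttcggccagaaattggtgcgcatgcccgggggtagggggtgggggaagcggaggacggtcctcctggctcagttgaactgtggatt
Tjp1, chr7:65371195-65371494, minus strand: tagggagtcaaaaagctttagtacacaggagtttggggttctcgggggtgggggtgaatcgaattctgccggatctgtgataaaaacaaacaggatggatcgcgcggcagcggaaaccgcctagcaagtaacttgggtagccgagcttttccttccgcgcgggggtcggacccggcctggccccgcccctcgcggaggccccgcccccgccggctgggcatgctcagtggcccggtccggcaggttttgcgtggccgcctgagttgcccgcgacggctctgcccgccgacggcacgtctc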

How the data were processed

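Poly(A) RNA of 6 pooled P9 sensory epithelia was sequenced in pairs of reads by the study. The authors deposited expected counts, estimated reads per gene symbol, made with the nf-core RNA pipeline on mm10 and Salmon, not divided by length or library size; tool versions, annotation and strand setting are not given in the sources used here. Samples were grouped by genotype from the labels, and 0 columns were left out. Of 42 member values, 5 were not whole, by at most 0.067.

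Counts were rounded, scaled by TMM, filtered by filterByExpr and tested in edgeR 4.0.16 (limma 3.58.1, R 4.3.3) by the quasi-likelihood test with Benjamini-Hochberg adjustment over all 15303 genes, a step checked on simulated data. Transcripts came from GENCODE vM21, matched for 23376 symbols directly and 649 by an older symbol, with 386 unmatched. Offsets used a loess trend (span 0.4) on the longest transcript and GC content. Alternatives were DESeq2 1.42.0, limma-voom, other scalings and filters, the replicate number as a block, unrounded counts and each library left out. Offsets from the median transcript or from RefSeq-matched transcripts, and the member count at any fold, were added after seeing the data.

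The members and lists were chosen with earlier results of these data known. Named genes were the members, in each junction list up to 3 called genes with the highest and 3 with the lowest change and the 2 most abundant, called markers, the 3 nearest profiles of each member and Kcnj2; some genes that this rule names are not reported here. Libraries of a group differed by more than sampling noise (chi-square per degree of freedom 15.69 to 31.15). Each library is labelled as its own replicate pool, and p-values measure the spread between these pools.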

Additional observations from a re-analysis of the deposited data

How the results depend on the processing

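Tjp1 stayed called under every alternative except the offsets from the longest transcript, those with the replicate block and those from RefSeq-matched transcripts, each of which left 0 members called higher; the cause was not tested. Under these 3 settings 983, 793 and 910 genes were called higher, and 4, 4 and 4 of the other junction genes; 447 and 474 genes were called lower under the last 2. Cldn14 turned to 0.0547, 0.0509 and 0.0345. Offsets from the median transcript called 12 other junction genes higher and put 5 members lower at any fold, with Tjp1 at 0.91, Ocln at -0.41 and Cldn14 at -0.12; the cause was not tested. Without the fold threshold 4184 genes were higher and 3590 lower, 3 members were lower, and 30 other junction genes were higher and 14 lower. Upper quartile scaling moved the median change over all genes to -0.08 (log2), with 1897 genes called higher, 1378 lower, and 6 other junction genes lower; the cause was not tested.

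Same-numbered pools did not deviate together (correlations -0.168, -0.288 and -0.234), which gave no sign that the numbers pair the pools. Because deviations were taken from the mean of only 3 pools a group, this check cannot decide whether they do. The header of the control replicate 1 file carries a different replicate number from its label, so that check and the block rest on the label. With the replicate block 2220 genes were called higher and 718 lower, 1 member higher and 0 lower, and Lsr rose to an adjusted p of 0.0692 by edgeR. With block and offsets, 0 members were higher and 1 lower at any fold.

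Leaving out each library gave 1878 to 2527 genes higher and 536 to 1074 lower, 18 to 23 other junction genes higher and 1 to 6 lower (1 without Kir2.1-OE replicate 1 or control replicate 1, 6 without Kir2.1-OE replicate 2, 5 without control replicate 2), and 2 to 3 members lower at any fold. Log2 fold changes of Cldn9 ran from -0.46 to -0.31, of Ocln from -0.40 to -0.28, of Tjp1 from 0.73 to 0.86, of Lsr from -0.32 to -0.21, of Ildr1 from -0.24 to -0.04, of Cldn14 from -0.17 to -0.03 and of Marveld2 from -0.16 to -0.06. The Cldn9 share difference ran from -3.76 to -1.31 points and that of Cldn14 from 0.0894 to 0.348. With 3 pools a group, the intervals of Cldn14, Marveld2 and Ildr1 leave changes in either direction.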
